A study of Mus musculus with 11 samples.

Results

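Spleens of mice injected with DMXAA were compared with spleens of lupus-prone Fas lpr mice, to describe which genes and gene families dominated an induced STING response and which dominated spontaneous autoimmunity. The comparison took all 93 genes of a custom nCounter panel in 9 of the 11 mice of the series, the 2 that the sample titles give as DMXAA injected and the 7 whose titles name the Mrl background. The study as a whole asked whether cGAS and STING contribute to systemic lupus erythematosus in mice. In the nCounter assay, barcoded probes bound to RNA are counted directly, with no amplification step. The signal deposited by the authors is that count times 1 factor per mouse. Dividing the signal by that factor gave whole numbers, called recovered counts here.

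The DMXAA-injected mice were 2 WT mice on the B6 background. The labels give no dose, route or time of injection, and these mice are not described in the text of the paper. The Fas lpr mice were 3 WT/Fas lpr and 4 cGAS KO/Fas lpr mice on the MRL background, which carry a defective Fas allele and develop lupus-like disease with age. Fas lpr is not written in the labels of these 7 mice, nor KO in those of the 4 cGAS mice, so that both alleles were taken from the paper, where cGAS was deleted in the MRL strain itself by CRISPR/Cas9 and littermates served as controls. Values of 1 uninjected WT and 1 uninjected cGAS KO B6 mouse are given beside some genes as a description. Their total counts were only 3612 and 12386, with 46 and 26 of the 93 genes under 20 counts, so that their values are less sure than those of the other mice, also where nothing is said of it. All mice were female, 50 ng of spleen RNA went into each hybridization, and the labels give no ages. The labels name spleen, while the paper names whole splenocytes of the Fas lpr cohort, whose spleens were weighed and analyzed by flow cytometry at 12 weeks, with no age given for the expression samples themselves. Strain, Fas allele and injection differed together between the groups, and any effects of these and of age cannot be told apart. None of the markers looked for of T cells, B cells, plasma cells, macrophages, neutrophils, NK cells or plasmacytoid dendritic cells was on the panel, so that the tissue label was not checked, and fewer cells of a type and less RNA per cell cannot be told apart.

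DMXAA binds mouse STING directly, downstream of the DNA sensor cGAS, and STING then drives transcription factors of the IRF and NF-kB families. These induce type I interferons, chemokines and inflammatory cytokines within hours, and the secreted interferon in turn induces a broad set of antiviral genes in neighboring cells. In Fas lpr mice, lymphocytes that would otherwise be removed persist, and the spleen enlarges with activated B and T cells. The B cells among them respond to nucleic acids through endosomal Toll-like receptors.

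Each value below is a centred log2 signal, the log2 of the deposited signal minus the median log2 of the 93 genes in that mouse, so that 0 is the middle of the panel. With limma and a threshold of 0.05 on the adjusted p, 32 of 93 genes were higher in the DMXAA-injected mice (34.4%), 52 were lower (55.9%) and 9 were not called, so that 90.3% of the panel was called. Both DMXAA-injected mice lay above all 7 Fas lpr mice for 31 genes (33.3%) and below all 7 for 51 genes (54.8%). After centring 10 genes were higher by at least 4 on the log2 scale and 5 were lower by as much, and as a share of the panel total these counts were 6 and 29. The spread within a group was smaller than most of these differences. The median SD of a gene was 0.23 over the 7 Fas lpr mice, and the median gap between the 2 DMXAA-injected mice was 0.13.

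The split into higher and lower genes depended on the scale, and the summed panel signal was larger in the DMXAA-injected mice. The recovered counts summed to 647148 and 600677 in these mice and to 28406 to 58404 in the Fas lpr mice. The factor was 1.61 and 1.64 in the DMXAA-injected, 0.67 to 1.36 in the Fas lpr and 0.082 and 0.297 in the uninjected mice. It tended to be larger where counts were larger, so that the deposited scale widened the differences in total. Divided by the factor, counts summed to 401492 and 366340, 35225 to 52312, and 43889 and 41711 in the same order. Which scale is right was not tested. The median difference over the 93 genes was -0.81 after centring, -0.026 with the median of ratios, -1.08 with the 75th percentile, -2.60 as a share of the panel total, 1.84 on the deposited scale and 0.51 with the counts divided by the factor. The higher and lower genes then numbered 32 and 52 after centring, 40 and 41 with the median of ratios, 16 and 69 as a share of the total, 54 and 5 on the deposited scale and 47 and 32 with the counts divided by the factor. With the 75th percentile they numbered 30 and 56. Against the 3 WT/Fas lpr mice alone 32 genes were higher and 51 lower after centring, and against the 4 cGAS KO/Fas lpr mice alone 31 and 50. Under all 6 scalings, 16 genes were called higher and 5 were called lower. The 16 were Ifnb1, Ifna4, Ifit1, Ifit2, viperin, Ifi204, ccl4, cxcl1, cxcl2, cxcl10, tnfa, Il6, Il15, tlr2, socs1 and eya4, and the 5 were Il-1b, mmp2, tlr1, dusp6 and tlr11. eya4 belongs to no list and is named here after its values were seen. The distance of a gene from the median difference of the panel does not change with these scalings and is called the difference relative to the panel where it is given.

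The panel signal of the DMXAA-injected mice was concentrated in a few transcripts. In the DMXAA-injected mice 4 and 3 genes held 50% of the summed panel signal, compared to 9 genes in every Fas lpr mouse, and the 5 leading genes held 66.4% and 68.1% compared to 32.9% to 35.0%. In the uninjected WT and cGAS KO B6 mice 12 and 7 genes held 50%, and the 5 leading genes held 33.3% and 43.3%. Shares of different genes rest on different probes, whose efficiencies were not measured. viperin, an antiviral enzyme induced by interferon, took 28.0% and 29.1% in the DMXAA-injected mice and 3.02% to 4.71%, with a median of 3.93%, in the Fas lpr mice. The share of cxcl10, a chemokine that attracts activated T cells, was 12.1% and 12.7% in the DMXAA-injected mice and 1.05% to 1.61%, with a median of 1.19%, in the Fas lpr mice. ccl4, a chemokine for monocytes and T cells, held 9.91% and 10.6% in the DMXAA-injected mice and 0.0904% to 0.134%, with a median of 0.115%, in the Fas lpr mice. All 3 shares were higher in both DMXAA-injected mice than in any Fas lpr mouse, and ccl4 ranked 3 in both DMXAA-injected mice and 67 to 73 in the Fas lpr mice. Ifit1 held 9.07% and 9.21% in the DMXAA-injected mice and 0.0636% to 0.125%, with a median of 0.0915%, in the Fas lpr mice, and Ifnb1 held 7.34% and 6.45% in the DMXAA-injected mice and 0.0205% to 0.0352%, with a median of 0.0239%, in the Fas lpr mice. The share of tnfa was 5.001% and 4.70% in the DMXAA-injected mice and 0.229% to 0.358%, with a median of 0.269%, in the Fas lpr mice. These 6 genes led the panel in both DMXAA-injected mice.

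In the Fas lpr mice the panel signal was spread over more genes, none of which reached the share that viperin had after DMXAA. unc93b, the chaperone that carries nucleic acid-sensing Toll-like receptors to endosomes, held 0.382% and 0.377% in the DMXAA-injected mice and 5.03% to 7.76%, with a median of 6.52%, in the Fas lpr mice. The share of Ifi47, a GTPase induced by interferon-gamma, was 0.863% and 0.781% in the DMXAA-injected mice and 5.59% to 6.93%, with a median of 5.87%, in the Fas lpr mice. tgfb1, a cytokine that restrains lymphocytes, held 0.571% and 0.585% in the DMXAA-injected mice and 4.49% to 5.60%, with a median of 5.01%, in the Fas lpr mice. None of these shares overlapped between the groups, but the same held for most of the panel. The shares of 70 of the 93 genes were lower in both DMXAA-injected mice than in all 7 Fas lpr mice. As a log2 share, unc93b differed by -4.08, tgfb1 by -3.11 and Ifi47 by -2.85, compared to a median of -2.60 over all 93 genes. mndal, a member of the p200 family of DNA-binding proteins, held 1.32% and 1.03% in the DMXAA-injected mice and 4.63% to 5.88%, with a median of 5.28%, in the Fas lpr mice. Irf1, a transcription factor induced by both kinds of interferon, was a leading gene of both states, with 3.24% and 3.20% in the DMXAA-injected mice and 5.05% to 5.41%, with a median of 5.13%, in the Fas lpr mice. As a log2 share, mndal differed by -2.16 and Irf1 by -0.69, both less than the median gene of the panel. unc93b and mndal were also the leading genes of the uninjected B6 mice, at 11.4% and 7.83% of the panel signal in the WT mouse and 12.8% and 14.7% in the cGAS KO mouse. In the same 2 mice Ifi47 held 1.61% and 0.985%, tgfb1 1.85% and 2.38% and Irf1 3.07% and 2.96%. With 1 uninjected mouse per genotype, and with strain and Fas allele differing together, it cannot be told whether any of these shares goes with Fas lpr.

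**Figure D1:**
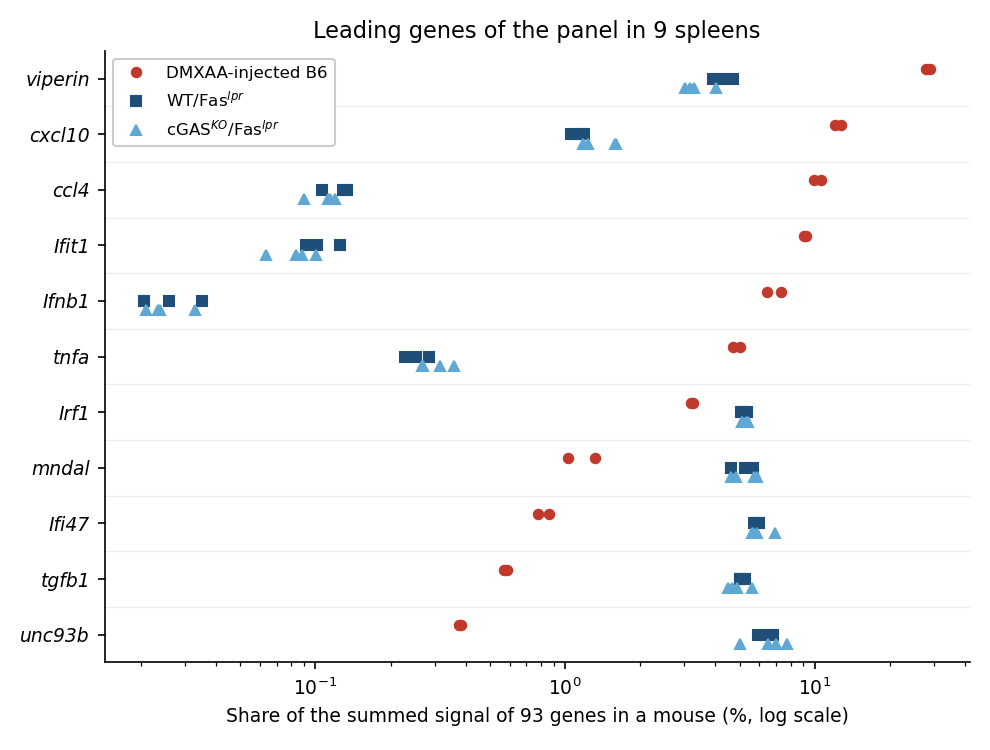
Share of the summed signal of the 93 panel genes held by 11 of the leading genes (x axis, percent, log scale) in each of 2 DMXAA-injected B6, 3 WT/Fas lpr and 4 cGAS KO/Fas lpr mice, 1 point per mouse. viperin held 28.0% and 29.1% in the DMXAA-injected mice, and the points of the groups do not overlap for any gene drawn. Over all 93 genes, the shares of 17 were higher and those of 70 lower in the DMXAA-injected mice without overlap.

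Both type I interferon genes of the panel, Ifnb1 and Ifna4, were higher in the DMXAA-injected mice under every scaling, with a median difference of 8.67 compared to -0.81 over all 93 genes. Ifnb1 is the first interferon made after STING activation, and Ifna4 is an early interferon alpha. The centred signal of Ifnb1 was 6.12 and 6.001 in the DMXAA-injected mice and -4.11 to -3.41 in the Fas lpr mice, with a median of -3.92. Its recovered counts were 47509 and 38759 in the DMXAA-injected mice and 9 to 19 in the Fas lpr mice, so that Ifnb1 was near the bottom of the panel in every Fas lpr mouse and ranked 5 in both DMXAA-injected mice. The difference was 9.86 ± 0.20 (SE, limma adjusted p = 1.26e-11), or 931-fold, and 10.67 relative to the panel. Ifna4 had a centred signal of 2.73 and 2.76 in the DMXAA-injected mice and -5.80 to -4.23 in the Fas lpr mice, with a median of -4.73. The groups were widely apart here too, with a difference of 7.48 ± 0.35 (SE, limma adjusted p = 5.75e-09) and recovered counts of 4528 and 4108 in the DMXAA-injected mice and 3 to 11 in the Fas lpr mice. Background was not measured, and with counts under 20 set to 20 the differences of Ifnb1 and Ifna4 were 9.08 and 5.77, so that both folds depend on the low counts in the Fas lpr mice. Together both genes held 8.04% and 7.14% of the panel signal in the DMXAA-injected mice and 0.0297% to 0.0504% in the Fas lpr mice.

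Of 6 interferon-stimulated effectors, 4 were higher and 2 lower in the DMXAA-injected mice, compared to 34.4% higher and 55.9% lower over the whole panel, with a median difference of 3.04, and the group held 42.4% and 43.0% of the panel signal in the DMXAA-injected mice and 6.35% to 8.38% in the Fas lpr mice. Ifit1 and Ifit2 bind foreign RNA and block its translation. The centred signal of Ifit1 was 6.43 and 6.51 in the DMXAA-injected mice and -2.48 to -1.504 in the Fas lpr mice, with a median of -2.03. Its difference was 8.43 ± 0.21 (SE, limma adjusted p = 5.62e-11), or 344-fold. Ifit2 was 5.47 and 5.35 in the DMXAA-injected mice and -0.73 to -0.15 in the Fas lpr mice, with a median of -0.40. The difference of Ifit2 was 5.81 ± 0.17 (SE, limma adjusted p = 1.39e-10), and both genes were at the middle of the panel or below it in every Fas lpr mouse and among the 7 leading genes in both DMXAA-injected mice. viperin was high in both groups, with a centred signal of 8.05 and 8.17 in the DMXAA-injected mice and 3.10 to 3.73 in the Fas lpr mice, with a median of 3.47. The uninjected B6 mice were at 2.44 and 4.19 for viperin. The difference of viperin was 4.73 ± 0.17 (SE, limma adjusted p = 5.53e-10), or 26.5-fold, which is smaller than that of Ifit1 although viperin was the leading transcript. oas2, which senses double-stranded RNA, differed by 1.36, with 1.03 and 0.54 in the DMXAA-injected mice and -1.12 to -0.21 in the Fas lpr mice, with a median of -0.56, and this difference ran from -0.43 to 4.01 over the 6 scalings. adar, an RNA editing enzyme, and samhd1, which degrades deoxynucleotides, differed by -0.77 and -0.81, with ranges of -2.56 to 1.88 and -2.60 to 1.84 over the 6 scalings. Relative to the panel they were at 0.038 and 0, so that both moved with the middle of the panel. Differences within this group ranged from -0.81 for samhd1 to 8.43 for Ifit1.

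Of 9 genes listed with the cytosolic sensors of DNA and RNA, 5 were higher and 4 lower, mndal included, compared to 34.4% and 55.9% over all 93 genes. The list also holds the exonuclease trex1 and the inflammasome gene nlrp3. Its median difference was 1.30 and turned to -0.49 as a share of the total. Ifi204, a DNA sensor of the p200 family, was 2.55 and 2.63 in the DMXAA-injected mice and -1.18 to -0.76 in the Fas lpr mice, with a median of -0.89. Its difference was 3.50 ± 0.13 (SE, limma adjusted p = 8.79e-10), and it was the only sensor called higher under all 6 scalings. The related Ifi205 differed by 1.30, and the RNA sensors lgp2 and mda5 by 1.96 and 1.67. trex1, the exonuclease that removes cytosolic DNA, differed by 1.495. For these 4 genes the groups did not overlap after centring, and as a share of the total the direction turned for Ifi205, mda5 and trex1 but not for lgp2. aim2, which assembles an inflammasome on DNA, went the other way, with 0.85 and 0.75 in the DMXAA-injected mice and 2.04 to 2.59 in the Fas lpr mice, with a median of 2.46. Its difference was -1.59 ± 0.16 (SE, limma adjusted p = 2.61e-06) and ran from -3.38 to 1.05 over the 6 scalings. zbp1, a sensor of Z-form nucleic acid, differed by -0.57 (range -2.36 to 2.08), or 0.24 relative to the panel, and nlrp3 by -0.58 (range -2.37 to 2.07). mnda, paired with Ifi211 of the p200 family, is in no list and is named here after its values were seen. It differed by -2.97 ± 0.28 (SE, limma adjusted p = 1.57e-06) and ran from -4.77 to -0.33 over the 6 scalings. Its counts were 45 and 27 in the DMXAA-injected mice and 32 to 123 in the Fas lpr mice. mndal, from the same gene family as Ifi204, differed by only -0.37 ± 0.15 (SE, limma adjusted p = 0.0401), its groups overlapped, and it was 0.44 relative to the panel. The call of mndal was lost against the WT/Fas lpr mice alone (-0.35), against the cGAS KO/Fas lpr mice alone (-0.38), under the replicate block (-0.31) and without DMXAA-injected mouse 2 (-0.22), and it turned to higher with the median of ratios, on the deposited scale and with the counts divided by the factor, so that mndal is not read as lower. The sensors held 4.62% and 4.01% of the panel signal in the DMXAA-injected mice and 10.2% to 12.1% in the Fas lpr mice. As a share of the total, however, their median difference was -0.49, compared to -2.60 over all 93 genes. The sensors were thus lower by less than the panel as a whole.

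Among CXC chemokines, 4 of 5 were higher (34.4% over the panel) and cxcl9 was lower, with a median difference of 2.89 that stayed above 0 under the 6 scalings. cxcl10 was 6.84 and 6.98 in the DMXAA-injected mice and 1.60 to 2.18 in the Fas lpr mice, with a median of 1.75. Its difference was 5.07 ± 0.17 (SE, limma adjusted p = 3.15e-10), or 33.7-fold. cxcl9, which binds the same receptor as cxcl10 and depends on interferon-gamma, had a centred signal of 1.57 and 1.44 in the DMXAA-injected mice and 3.54 to 4.10 in the Fas lpr mice, with a median of 3.66. It was lower in both DMXAA-injected mice than in all 7 Fas lpr mice, with a difference of -2.25 ± 0.16 (SE, limma adjusted p = 1.4e-07) that ran from -4.04 to 0.40 over the 6 scalings. The uninjected B6 mice were at -0.39 and -0.13, below both other groups, from counts of only 16 and 33. The neutrophil chemokine cxcl2 was 3.16 and 3.09 in the DMXAA-injected mice and -3.66 to -0.90 in the Fas lpr mice, with a median of -2.30. Its difference was 5.59 ± 0.58 (SE, limma adjusted p = 3.52e-06), with a wide spread among the Fas lpr mice at counts of 12 to 57. cxcl1, another neutrophil chemokine, differed by 2.89 ± 0.25 (SE, limma adjusted p = 8.12e-07), with 0.10 and -0.16 in the DMXAA-injected mice and -3.48 to -2.34 in the Fas lpr mice, with a median of -2.92. cxcl6 was 1.35 and 1.65 in the DMXAA-injected mice and 0.83 to 1.42 in the Fas lpr mice, with a median of 1.15, and the groups overlapped. Its difference of 0.39 ± 0.16 (SE, limma adjusted p = 0.0404) was the smallest of the higher calls, was not called against the WT/Fas lpr mice alone (0.37), against the cGAS KO/Fas lpr mice alone (0.40), with the 75th percentile (0.12) or without DMXAA-injected mouse 2 (0.24), and turned to -1.40 as a share of the total.

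Both CC chemokines of the panel were higher and both CC chemokine receptors were lower after centring, compared to 34.4% higher and 55.9% lower over all 93 genes. The centred signal of ccl4 was 6.56 and 6.72 in the DMXAA-injected mice and -1.96 to -1.42 in the Fas lpr mice, with a median of -1.66. Its difference was 8.28 ± 0.15 (SE, limma adjusted p = 5.57e-12), or 310.0-fold, from counts of 38 to 69 in the Fas lpr mice. ccl5, a chemokine of activated T cells and of interferon responses, was high in both states, with 4.72 and 4.99 in the DMXAA-injected mice and 3.14 to 3.76 in the Fas lpr mice, with a median of 3.36. Its difference was 1.47 and ran from -0.32 to 4.11 over the 6 scalings. ccr1 and ccr2, receptors of monocytes, differed by -3.19 and -1.52, and the median of both was -2.35 but 0.29 on the deposited scale. The chemokines of both families held 26.4% and 28.1% of the panel signal in the DMXAA-injected mice and 9.77% to 13.1% in the Fas lpr mice.

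Genes of the interferon-gamma axis held a larger share of the panel signal in the Fas lpr mice, as did several other lists. Among these were the Toll-like receptors and adaptors, the transcription factors of the interferon response and the anti-inflammatory cytokines. Of the 5 genes of the axis, 4 were lower in the DMXAA-injected mice, compared to 55.9% of the panel, and Irf1 was higher. The median difference was -1.94 but 0.70 on the deposited scale. Relative to the panel, Ifng was at -2.23, cxcl9 at -1.44, nlrc5 at -1.13, Ifi47 at -0.25 and Irf1 at 1.91. The axis held 4.62% and 4.43% of the panel signal in the DMXAA-injected mice and 17.5% to 21.3% in the Fas lpr mice. Ifng itself was -5.32 and -4.38 in the DMXAA-injected mice and -2.34 to -1.10 in the Fas lpr mice, with a median of -1.92. Its difference was -3.04 ± 0.31 (SE, limma adjusted p = 2.92e-06), with low recovered counts of 17 and 29 in the DMXAA-injected mice and 21 to 71 in the Fas lpr mice. On the deposited scale the difference of Ifng was -0.39 and was not called. Ifi47 was 3.04 and 2.96 in the DMXAA-injected mice and 3.93 to 4.26 in the Fas lpr mice, with a median of 4.05. All Fas lpr mice were above both DMXAA-injected mice by the centred signal, with a difference of -1.06 ± 0.11 (SE, limma adjusted p = 4.18e-06), while it was 1.58 on the deposited scale and 0.26, not called, with the counts divided by the factor. The uninjected B6 mice were lower, at 1.47 and 1.76. nlrc5, a regulator of MHC class I genes, differed by -1.94, with 0.90 and 0.71 in the DMXAA-injected mice and 2.41 to 2.89 in the Fas lpr mice, with a median of 2.80. Irf1 was 4.95 and 4.99 in the DMXAA-injected mice and 3.83 to 3.95 in the Fas lpr mice, with a median of 3.86, the tightest range of the Fas lpr mice among the genes described here. Its difference was 1.10 ± 0.095 (SE, limma adjusted p = 8.22e-07) and ran from -0.69 to 3.75 over the 6 scalings. Of 5 transcription factors of the interferon response, 2 were higher and 3 lower, near the 34.4% and 55.9% of the whole panel, with a median difference of -1.51 but 1.14 on the deposited scale. Irf7, which amplifies interferon alpha production, was one of the higher ones, with 2.61 and 2.65 in the DMXAA-injected mice and 0.092 to 0.80 in the Fas lpr mice, with a median of 0.60 and a difference of 2.17 ± 0.20 (SE, limma adjusted p = 1.57e-06).

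Of 11 Toll-like receptors and adaptors, 2 were higher, 6 lower and 3 not called, a share of lower genes near the 55.9% of the whole panel. Their median difference of -0.80 was also near the -0.81 of all 93 genes, and it turned to 1.85 on the deposited scale and 0.52 with the counts divided by the factor. tlr1 and tlr2 form a receptor for bacterial lipopeptides together, and they went in opposite directions. The centred signal of tlr1 was -3.37 and -3.41 in the DMXAA-injected mice and 1.58 to 2.28 in the Fas lpr mice, with a median of 1.92. Its difference was -5.33 ± 0.18 (SE, limma adjusted p = 3.15e-10), or 40.2-fold lower. tlr2 was 1.97 and 2.002 in the DMXAA-injected mice and -0.96 to -0.58 in the Fas lpr mice, with a median of -0.87. Its difference was 2.80 ± 0.14 (SE, limma adjusted p = 7.17e-09), and for neither gene did the groups overlap. tlr11, a receptor for microbial profilin, was -4.60 and -4.85 in the DMXAA-injected mice and -0.40 to 0.042 in the Fas lpr mice, with a median of -0.21, a difference of -4.53 ± 0.14 (SE, limma adjusted p = 2.26e-10). The uninjected B6 mice had 0.93 and 2.40 for tlr1 and -0.69 and -0.36 for tlr11 (counts of 13 and 28), close to the Fas lpr mice and far above the DMXAA-injected mice. The DNA receptor tlr9 was -3.24 and -2.90 in the DMXAA-injected mice and -0.82 to 0.38 in the Fas lpr mice, with a median of -0.014. It differed by -3.05 ± 0.27 (SE, limma adjusted p = 1e-06). This difference ran from -4.84 to -0.40 over the 6 scalings, and its call was not kept under all 6. The RNA receptor tlr7 differed by -0.80 ± 0.22 (SE, limma adjusted p = 0.00584), and its direction turned on the deposited scale and with the counts divided by the factor. unc93b, on which both depend, was 1.86 and 1.90 in the DMXAA-injected mice and 3.79 to 4.46 in the Fas lpr mice, with a median of 4.19. Its difference was -2.29 ± 0.16 (SE, limma adjusted p = 1.26e-07) and ran from -4.08 to 0.35 over the 6 scalings. tlr3, the receptor for double-stranded RNA, was the other higher gene, with a difference of 0.74 that turned to -1.05 as a share of the total. The family held 1.26% and 1.26% of the panel signal in the DMXAA-injected mice and 8.39% to 12.2% in the Fas lpr mice.

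Inflammatory cytokines moved in both directions. Of 9, 3 were higher, near the 34.4% of the whole panel, 4 were lower and 2 not called, with a median difference of -1.13 that turned to 1.52 on the deposited scale and 0.19 with the counts divided by the factor. tnfa was 5.57 and 5.55 in the DMXAA-injected mice and -0.63 to -0.019 in the Fas lpr mice, with a median of -0.39. Its difference was 5.91 ± 0.16 (SE, limma adjusted p = 9.72e-11), or 59.95-fold. Il6 was 1.46 and 1.34 in the DMXAA-injected mice and -3.61 to -2.85 in the Fas lpr mice, with a median of -3.25, and its difference was 4.68 ± 0.19 (SE, limma adjusted p = 1.54e-09) from counts of 10 to 28 in the Fas lpr mice. Both cytokines are targets of NF-kB, and neither overlapped between the groups. Il15, which sustains NK and memory T cells, was -0.11 and 0 in the DMXAA-injected mice and -3.14 to -2.41 in the Fas lpr mice, with a median of -2.93, a difference of 2.79 ± 0.18 (SE, limma adjusted p = 7.46e-08). Il-1b, also a target of NF-kB, moved the other way and was the gene with the most negative difference on the panel. Its centred signal was -5.09 and -4.85 in the DMXAA-injected mice and 0.69 to 1.53 in the Fas lpr mice, with a median of 1.03. The difference was -6.07 ± 0.20 (SE, limma adjusted p = 3.15e-10), or 67.0-fold lower, and recovered counts were 20 and 21 in the DMXAA-injected mice and 280 to 423 in the Fas lpr mice, so that the counts themselves were lower in mice whose panel total was larger. The uninjected B6 mice were at 1.34 and 0.64, within or near the range of the Fas lpr mice. Il-1a differed by -2.61, Il-18 by -3.76 ± 0.19 (SE, limma adjusted p = 1.12e-08) and Il12a by -3.71 ± 0.18 (SE, limma adjusted p = 7.17e-09), and none of these 3 overlapped between the groups. Il-18 was -3.20 and -2.97 in the DMXAA-injected mice and 0.13 to 0.98 in the Fas lpr mice, with a median of 0.67, and Il12a was -4.95 and -4.72 in the DMXAA-injected mice and -1.45 to -0.81 in the Fas lpr mice, with a median of -1.14. Over the 6 scalings the difference of Il-1a ran from -4.40 to 0.033. Of other interleukin 1 family members on the panel, Il-33 was not called and Il1ra was higher, so that the family did not move as one.

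Of 6 anti-inflammatory cytokines, 1 was higher, 4 were lower and Il-33 was not called, a share of lower genes not far from the 55.9% of the panel, with a median difference of -2.10 but 0.55 on the deposited scale. The higher gene was Il1ra, the decoy ligand of the interleukin 1 receptor, with 1.07 and 1.05 in the DMXAA-injected mice and -0.51 to -0.0095 in the Fas lpr mice, with a median of -0.19 and a difference of 1.34 ± 0.14 (SE, limma adjusted p = 4.66e-06). As a share of the total the difference of Il1ra turned to -0.46. tgfb1 was 2.44 and 2.54 in the DMXAA-injected mice and 3.66 to 3.95 in the Fas lpr mice, with a median of 3.81. Its difference was -1.32 ± 0.11 (SE, limma adjusted p = 6.14e-07), and it ran from -3.11 to 1.33 over the 6 scalings. Il-10 was -5.95 and -6.43 in the DMXAA-injected mice and -3.92 to -2.12 in the Fas lpr mice, with a median of -2.96, a difference of -3.36 ± 0.40 (SE, limma adjusted p = 1.11e-05) at counts of 11 and 7 in the DMXAA-injected mice and 7 to 37 in the Fas lpr mice. Il-4, the cytokine of helper T cells that supports B cells, was -9.41 and -6.92 in the DMXAA-injected mice and -5.06 to -3.79 in the Fas lpr mice, with a median of -4.44. Its difference was -3.74 ± 0.53 (SE, limma adjusted p = 4.35e-05), but the recovered counts were only 1 and 5 in the DMXAA-injected mice and 4 to 15 in the Fas lpr mice, a level at which background is not known. Without DMXAA-injected mouse 1 or 2 the difference of Il-4 was -2.49 or -4.98, so that its size is not read. With counts under 20 set to 20 it was -1.98, but all counts of Il-4 were then equal. That value reflects only the panel medians of the mice. Counts were as low for Il13 (-2.88), which was -1.79 without DMXAA-injected mouse 1.

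Of 5 deubiquitinases and other brakes of signaling, 3 were higher and 2 lower, compared to 34.4% and 55.9% over the panel, with a median difference of 0.59 that turned to -1.20 as a share of the total. socs1, which blocks interferon receptor signaling, was 3.38 and 3.60 in the DMXAA-injected mice and 0.62 to 1.25 in the Fas lpr mice, with a median of 1.06. Its difference was 2.44 ± 0.16 (SE, limma adjusted p = 1.09e-07). a20, which ends NF-kB signaling, differed by 1.43 (range -0.36 to 4.07), and socs3 by 0.59 ± 0.17 (SE, limma adjusted p = 0.00638) (range -1.20 to 3.24). duba, a deubiquitinase that limits interferon induction, was -0.083 and 0.0095 in the DMXAA-injected mice and 3.28 to 3.88 in the Fas lpr mice, with a median of 3.53. It was among the leading genes in the Fas lpr mice and at the middle of the panel in the DMXAA-injected mice, and the uninjected B6 mice were at 1.49 and 4.36. Its difference was -3.58 ± 0.15 (SE, limma adjusted p = 2.01e-09). Among NF-kB proteins the inhibitor IkBa was higher by 1.12 (-0.67 as a share of the total), while nfkb1 and nfkb2 differed by -1.79 and -2.93. The median of these 3 genes was -1.79 but 0.85 on the deposited scale.

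Of 4 genes of costimulation and adhesion, cd40 was higher by 1.41 (range -0.38 to 4.06), cd80 and cd86 were lower and Icam1 was not called, near the shares of the whole panel (34.4% and 55.9%), with a median of -0.83 that turned to 1.82 on the deposited scale and 0.49 with the counts divided by the factor. cd80 was -2.77 and -3.13 in the DMXAA-injected mice and 0.42 to 0.99 in the Fas lpr mice, with a median of 0.72. Its difference was -3.69 ± 0.18 (SE, limma adjusted p = 7.38e-09), compared to -1.48 for cd86, the other ligand of CD28. The 17 genes in no list were lower in 15 cases, compared to 55.9% of the panel, higher in 1 (eya4) and not called in 1 (casp1, also named after its values were seen), with a median of -2.02 but 0.63 on the deposited scale. dusp6, a phosphatase that turns off ERK, was -2.94 and -2.81 in the DMXAA-injected mice and 1.64 to 2.12 in the Fas lpr mice, with a median of 1.86. Its difference was -4.75 ± 0.14 (SE, limma adjusted p = 1.39e-10), or 26.9-fold lower. mmp2, a matrix protease of stromal cells, was -5.09 and -5.78 in the DMXAA-injected mice and -0.35 to 0.32 in the Fas lpr mice, with a median of -0.051, and its difference was -5.34 ± 0.21 (SE, limma adjusted p = 1.42e-09). Il21, the cytokine of follicular helper T cells, was -5.02 and -4.99 in the DMXAA-injected mice and -2.25 to -0.84 in the Fas lpr mice, with a median of -1.11. Its difference was -3.68 ± 0.34 (SE, limma adjusted p = 1.51e-06), at counts of 21 and 19 in the DMXAA-injected mice and 32 to 107 in the Fas lpr mice. For dusp6, mmp2 and Il21 every Fas lpr mouse was above both DMXAA-injected mice, and the uninjected B6 mice were at 1.25 and 2.42 for dusp6, -0.30 and -1.36 for mmp2 and -0.81 and -0.78 for Il21, at counts of 12 to 21 for the last 2 genes.

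**Figure D2:**
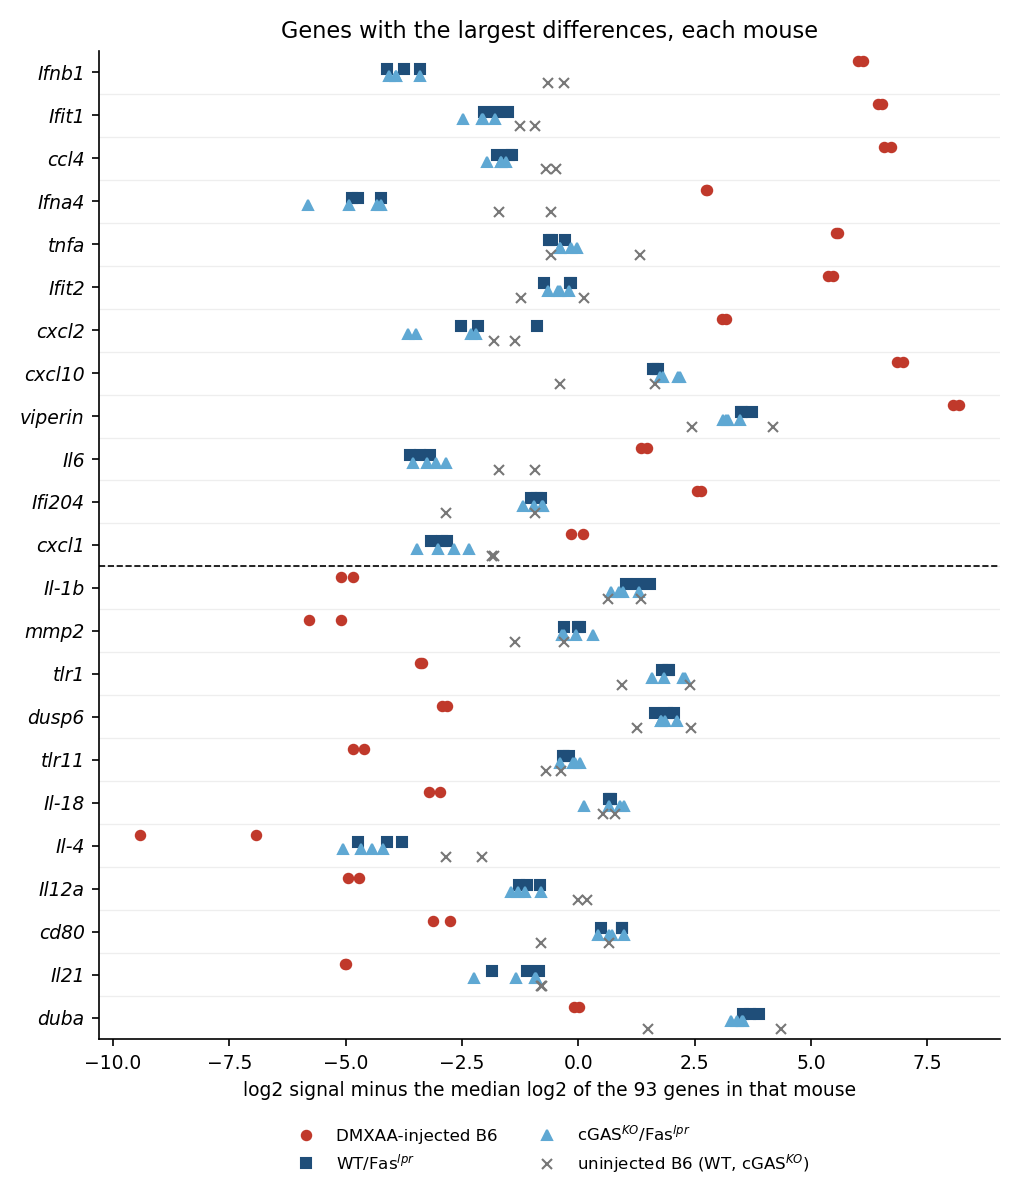
Centred log2 signal (x axis, log2 signal minus the median log2 of the 93 genes in that mouse) of the 12 genes with the largest and 11 of the 12 with the most negative differences, 1 point per mouse for 2 DMXAA-injected B6, 3 WT/Fas lpr, 4 cGAS KO/Fas lpr and 2 uninjected B6 mice. The DMXAA-injected mice lie above all Fas lpr mice for the genes over the dashed line, led by Ifnb1 with a difference of 9.86, and below them for the genes under it, led by Il-1b with -6.07. The genes drawn kept their direction under the 6 scalings, while 6 of the lower genes drawn, from Il-18 to duba, were not called under all 6.

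Ratios of 2 genes within a mouse do not depend on its factor or on any centring, and 9 such pairs were compared, of which 8 are described. Since the efficiencies of the probes were not measured, the ratio is read only by its change between groups and not by which gene was above the other. With 2 against 7 mice there are 36 divisions, so that the exact two-sided permutation test cannot go below 0.056, and 8 of the 9 pairs reached that value with no overlap between the groups (0.0625 adjusted over the 9 pairs). The log2 ratio of cxcl9 over cxcl10 was -5.27 and -5.54 in the DMXAA-injected mice and 1.79 to 2.05, with a median of 1.95, in the Fas lpr mice. The ratio was lower in both DMXAA-injected mice than in all 7 Fas lpr mice, with a difference of -7.32. The uninjected B6 mice were in between, at 0 and -1.76, the first of which is 16 counts of each gene. Ifng over Ifnb1 was -11.45 and -10.38 in the DMXAA-injected mice and 1.07 to 2.83, with a median of 2.12, in the Fas lpr mice. The difference of Ifng over Ifnb1 was -12.90, or -12.002 with counts under 20 set to 20. Ifna4 over Ifnb1 was -3.39 and -3.24 in the DMXAA-injected mice and -1.87 to -0.13, with a median of -1.0, in the Fas lpr mice, a difference of -2.38 that rests on low counts in the Fas lpr mice. All Fas lpr counts of both genes were under 20, and setting them to 20 makes both genes equal there. The difference of -3.31 found in that way is only the mean of the DMXAA-injected mice and is not read.

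Between endosomal receptors, tlr9 over tlr7 was -2.34 and -2.05 in the DMXAA-injected mice and -0.16 to 0.35, with a median of 0.055, in the Fas lpr mice. The ratio of these receptors was lower in both DMXAA-injected mice, with a difference of -2.25, and the uninjected B6 mice were at 0.56 and 1.70, from tlr7 counts of 17 and 20. socs3 over socs1 was -3.04 and -3.35 in the DMXAA-injected mice and -1.77 to -0.69, with a median of -1.55, in the Fas lpr mice, and the uninjected B6 mice were above both groups, at 1.42 and 1.23. Il-10 over tnfa was -11.52 and -11.98 in the DMXAA-injected mice and -3.36 to -1.95, with a median of -2.37, in the Fas lpr mice. The difference of this ratio was -9.27, or -8.32 with counts under 20 set to 20, as Il-10 was at low counts. cxcl2 over cxcl6 was 1.81 and 1.44 in the DMXAA-injected mice and -4.66 to -1.86, with a median of -3.72, in the Fas lpr mice, a difference of 5.20. Il12b over Il23a was the only pair whose groups overlapped, with 4.06 and 4.81 in the DMXAA-injected mice and 1.89 to 4.36, with a median of 2.87, in the Fas lpr mice, a difference of 1.53 and p = 0.111 by the exact permutation test (0.111 adjusted over the 9 pairs). Counts of Il23a were only 14 and 6 in the DMXAA-injected mice and 2 to 12 in the Fas lpr mice. With counts under 20 set to 20 the difference was 2.39, but all counts of Il23a were then equal and it rests on Il12b alone.

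**Figure D3:**
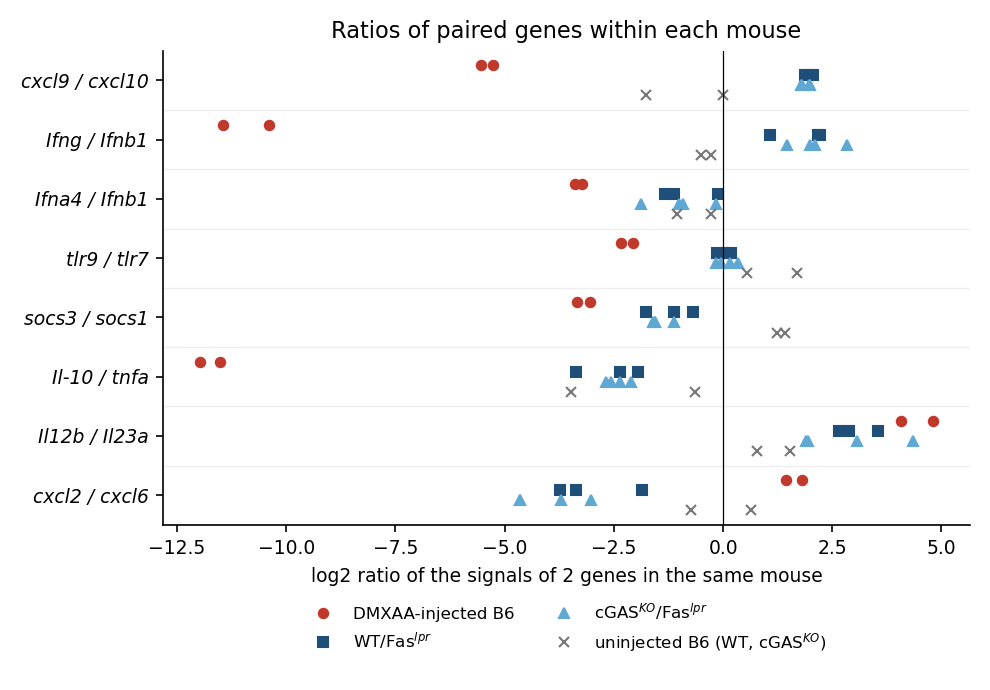
Log2 ratio of the signals of 2 genes in the same mouse (x axis) for 8 pairs, 1 point per mouse for 2 DMXAA-injected B6, 3 WT/Fas lpr, 4 cGAS KO/Fas lpr and 2 uninjected B6 mice, with a line at 0. The ratio of cxcl9 over cxcl10 is -5.27 and -5.54 in the mice given DMXAA and 1.79 to 2.05 in the Fas lpr mice, and the groups overlap only for Il12b over Il23a.

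Of the 9 genes that were not called after centring, the 5 closest to 0 were Il-33, myd88, tlr4, Icam1 and cox2. myd88, the adaptor of most Toll-like receptors, was 0.17 and 0.40 in the DMXAA-injected mice and -0.0095 to 0.68 in the Fas lpr mice, with a median of 0.27. The receptor for lipopolysaccharide, tlr4, was -0.13 and -0.26 in the DMXAA-injected mice and -0.42 to 0.074 in the Fas lpr mice, with a median of -0.064. In both genes the DMXAA-injected mice lay within the range of the Fas lpr mice, with differences of -0.055 ± 0.17 (SE, limma adjusted p = 0.765) and -0.068 ± 0.14 (SE, limma adjusted p = 0.658). Icam1, an adhesion molecule, differed by -0.18 ± 0.12 (SE, limma adjusted p = 0.188), with 0.83 and 0.81 in the DMXAA-injected mice and 0.82 to 1.21 in the Fas lpr mice, with a median of 0.98. By rank among the 93 genes, myd88 (45 and 42) and tlr4 (50 and 52) lay within the Fas lpr mice (36 to 48 and 46 to 54), whereas Icam1 (39 and 36) ranked below all of them (30 to 35). The level of these 3 genes was not shown to be equal, as all were called higher with the median of ratios, on the deposited scale and with the counts divided by the factor and lower as a share of the total, and tlr4 and Icam1 were called lower with the 75th percentile. Il-33 and cox2 differed by -0.037 ± 0.46 (SE, limma adjusted p = 0.937) and 0.18 ± 0.25 (SE, limma adjusted p = 0.496), Il-33 at counts of 14 and 18 in the DMXAA-injected mice and 2 to 7 in the Fas lpr mice, and both ranked above all Fas lpr mice. With counts under 20 set to 20, Il-33 was called lower (-1.98), as all of its counts were then equal. The other 4 genes not called were Il12b, Il23a, tlr8 and casp1, with differences of 0.41, -1.13, -0.24 and 0.19.

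To show sequences upstream of the leading genes, promoter windows from RefSeq (GRCm38.p6, 250 bases before to 50 after the start of each gene) were searched on both strands for GAAANNGAA, the core of the interferon-stimulated response element, and GGGNNNTTC, a form of the NF-kB site. Of the 93 panel names, 93 were paired with a symbol and 67 had a window. GAAANNGAA was found in any window for 19 of these 67 genes (28.4%) and GGGNNNTTC for 23 (34.3%), compared to 9.76% and 15.8% of all 27025 symbols with a window. Of the 23 higher genes with a window, 8 held GAAANNGAA (34.8%) and 13 held GGGNNNTTC (56.5%), and of the 37 lower genes, 9 (24.3%) and 8 (21.6%). Among the 12 genes with the largest differences, 10 had a window, and ccl4 and Ifi204 had none. cxcl1 and cxcl2 had 3 matches to GGGNNNTTC each, tnfa, Il6 and Ifnb1 had 1, Ifit2 had 1 in only 1 of its 2 windows, and Ifna4 had 2 matches to GAAANNGAA. Windows of 4 leading genes are printed to show how they differ, with matches to either motif in capitals. Ifit1 had 3 matches to GAAANNGAA, of which 2 overlap, viperin had 1, cxcl10 had 1 and also 2 matches to GGGNNNTTC, and Ifnb1 had only 1 match to GGGNNNTTC. A match is a description of the letters and not a binding site.
Ifnb1, chr4:88522745-88523044, minus strand: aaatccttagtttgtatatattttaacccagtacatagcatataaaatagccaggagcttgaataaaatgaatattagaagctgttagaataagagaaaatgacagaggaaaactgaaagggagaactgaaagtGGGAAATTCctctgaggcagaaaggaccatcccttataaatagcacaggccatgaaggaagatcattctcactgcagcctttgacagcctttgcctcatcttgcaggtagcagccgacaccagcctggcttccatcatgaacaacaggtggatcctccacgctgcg
Ifit1, chr19:34640639-34640938, plus strand: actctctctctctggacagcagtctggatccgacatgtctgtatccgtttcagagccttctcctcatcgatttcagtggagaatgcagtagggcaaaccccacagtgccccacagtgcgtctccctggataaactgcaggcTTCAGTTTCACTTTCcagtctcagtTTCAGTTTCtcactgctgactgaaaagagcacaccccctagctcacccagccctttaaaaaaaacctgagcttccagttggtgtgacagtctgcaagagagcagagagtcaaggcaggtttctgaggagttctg
cxcl10, chr5:92348840-92349139, minus strand: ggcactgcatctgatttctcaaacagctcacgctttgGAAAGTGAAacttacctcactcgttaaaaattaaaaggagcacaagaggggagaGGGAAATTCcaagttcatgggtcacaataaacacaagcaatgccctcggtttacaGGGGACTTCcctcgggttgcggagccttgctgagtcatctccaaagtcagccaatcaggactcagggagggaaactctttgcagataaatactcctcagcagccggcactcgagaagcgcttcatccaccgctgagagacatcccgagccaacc
viperin (Rsad2), chr12:26456403-26456702, minus strand: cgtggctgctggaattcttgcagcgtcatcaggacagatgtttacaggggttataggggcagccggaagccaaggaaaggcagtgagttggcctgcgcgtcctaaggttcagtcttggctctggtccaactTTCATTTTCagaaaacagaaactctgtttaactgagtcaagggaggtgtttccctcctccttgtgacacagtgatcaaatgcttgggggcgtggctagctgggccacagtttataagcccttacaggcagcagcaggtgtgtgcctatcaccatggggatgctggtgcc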

How the data were processed

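The authors normalized nCounter counts to housekeeping genes and deposited a linear signal for 93 genes in 11 spleens. All 1023 values were whole multiples of 1 factor per mouse within 0.0001, which gave the recovered counts. How background was treated is not given in the sources used here, and negative-control probes were not analysed here. From the deposited signal, log2 values with no pseudocount were centred on the panel median of each mouse and compared between 2 and 7 mice by lmFit and eBayes of limma 3.58.1 under R 4.3.3 (7 residual and 3.11 prior degrees of freedom). P-values are two-sided, were adjusted over the 93 genes by the Benjamini-Hochberg method and were called under 0.05. Within-mouse ratios were compared with an exact permutation test in SciPy 1.17.1. Counts within each group differed by more than sampling noise between every pair of mice (chi-square 2.91 to 27.1 times its degrees of freedom). Members, gene lists and pairs were chosen with earlier results of these data known. The genes described are the 12 with the largest and the 12 with the most negative differences among those called, the 6 with the largest mean share in each group, the 5 not called that were closest to 0, genes of the pairs and some members of the lists. Of the genes so chosen, 3 are not reported here, and 1 pair and 1 list are left out with them. All genes without a description stay in the counts, medians and list totals. Gene names follow the deposited table, and 78 of them are RefSeq symbols, while 11 were paired through aliases written with the lists and 4 through RefSeq synonyms. cxcl6 is paired with Cxcl5 in that table, so that its identity is less sure. Alternatives covered the scaling, pseudocounts, low counts, the fit, the mice included and the block.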

Additional observations from a re-analysis of the deposited data

Results flagged for a closer look

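Dixon's criterion was applied to 74 genes, over all 7 Fas lpr mice and over the 4 with cGAS deleted, which made 148 values. In 11 of them 1 mouse stood far from the rest, and chance flags about 1 in 20. The gap is given as a share of the range of the group, on the centred log2 scale. cGAS KO/Fas lpr mouse 1 stood apart from the other 6 Fas lpr mice as the lowest for tlr7 (gap 0.593), tlr9 (0.617), Il-18 (0.623), cd86 (0.584) and nfkb2 (0.638). It was at -0.77 for tlr7, -0.82 for tlr9, 0.13 for Il-18, 1.42 for cd86 and 2.45 for nfkb2. It was also the highest of the 4 cGAS KO/Fas lpr mice for Ifng, at -1.10 with a gap of 0.956. Its total count of 41885 was within the range of the Fas lpr mice. WT/Fas lpr mouse 1, with the smallest total count of the 7 (28406), was the highest for cox2 (-1.0, gap 0.664) and the lowest for socs1 (0.62, gap 0.609) and nlrc5 (2.41, gap 0.648). cGAS KO/Fas lpr mouse 2 was the highest for Irf1 at 3.95, with a gap of 0.588 among the 7 and 0.892 among the 4 mice, although the whole range of Irf1 was small. None of these mice crossed to the DMXAA-injected mice for tlr7, tlr9, Il-18, cd86, nfkb2, Ifng, socs1, nlrc5 or Irf1, whereas the groups overlapped for cox2. What sets these mice apart was not tested.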

How the results depend on the processing

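After centring, 32 genes were called higher and 52 lower in the DMXAA-injected mice. As a share of the total 16 were higher and 69 lower, on the deposited scale 54 and 5, and with the counts divided by the factor 47 and 32, and the genes with no overlap numbered 17 and 70, 58 and 5, and 46 and 31, beside 31 and 51 after centring. These alternatives differ only in 1 shift per mouse. The exact Mann-Whitney test called 0 genes either way, as its smallest p with 2 against 7 mice is 0.056, while limma had 84 at an unadjusted p under 0.05. Under all other alternatives to the fit, 30 to 40 genes were higher and 41 to 56 lower. Leaving out each mouse gave 31 to 33 higher and 49 to 52 lower, with 31 to 33 and 51 to 54 free of overlap; where 1 DMXAA-injected mouse was left, it was assumed to vary like the Fas lpr mice. Mouse numbers are shared between groups, but deviations of same-numbered DMXAA-injected and Fas lpr mice correlated at -0.042 to 0.21, and equal numbers were not taken as pairs. Under the replicate block 33 genes were higher and 51 lower, mndal was not called (-0.31), Il12b (0.54) and Il23a (-1.56) were, and tlr4 turned to 0.031. mndal was also not called against 1 genotype of Fas lpr mice (-0.35 and -0.38), with genotypes weighted equally or all 11 mice in 5 groups (-0.36) or with pseudocount 10 (-0.29), nor was cxcl6 against 1 genotype (0.37 and 0.40) or with equal weights or 5 groups (0.39).

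Of the 74 genes followed through the alternatives, which leave out nlrp3 and mnda, 22 reversed on the deposited scale. They were unc93b (0.35), Ifi47 (1.58), mndal (2.28), tgfb1 (1.33), Il-33 (2.61), myd88 (2.59), tlr4 (2.58), Icam1 (2.47), cxcl9 (0.40), tlr7 (1.85), nos2 (1.40), Il23a (1.52), zbp1 (2.08), samhd1 (1.84), adar (1.88), aim2 (1.05), cd86 (1.17), nfkb1 (0.85), ccr2 (1.13), nlrc5 (0.70), Il-1a (0.033) and tlr8 (2.41). With the counts divided by the factor 14 reversed, Ifi47 (0.26), mndal (0.95), tgfb1 (0.0042), Il-33 (1.28), myd88 (1.27), tlr4 (1.25), Icam1 (1.14), tlr7 (0.52), nos2 (0.073), Il23a (0.19), zbp1 (0.75), samhd1 (0.51), adar (0.55) and tlr8 (1.08). With the median of ratios 8 did, mndal (0.41), Il-33 (0.74), myd88 (0.73), tlr4 (0.71), Icam1 (0.61), zbp1 (0.21), adar (0.012) and tlr8 (0.54). As a share of the total 16 turned negative, Irf1 (-0.69), cox2 (-1.61), socs3 (-1.20), Il12b (-1.39), cxcl6 (-1.40), mda5 (-0.12), trex1 (-0.30), ccl5 (-0.32), a20 (-0.36), cd40 (-0.38), oas2 (-0.43), Il1ra (-0.46), Ifi205 (-0.49), IkBa (-0.67), tlr3 (-1.05) and casp1 (-1.60). With the 75th percentile cox2 was -0.092 and casp1 -0.086. Against WT/Fas lpr mice only, tlr4 was 0.017 and cox2 -0.076, and against cGAS KO/Fas lpr mice only, Il-33 was 0.22 and myd88 0.0035. Leaving out each mouse moved Il-33 from -0.30 to 0.23 and myd88 from -0.17 to 0.063. nos2, which is named only in this section, differed by -1.25 ± 0.33 (SE, limma adjusted p = 0.00382) after centring. Apart from the shift per mouse, the cause of these reversals was not tested.

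Leaving out 1 mouse ended the call of mndal without WT/Fas lpr mouse 2 (-0.36) or 3 (-0.35), cGAS KO/Fas lpr mouse 2 (-0.34) or 3 (-0.33) or DMXAA-injected mouse 2 (-0.22). It ended that of cxcl6 without WT/Fas lpr mouse 1 (0.37), cGAS KO/Fas lpr mouse 1 (0.37), 2 (0.40) or 3 (0.34) or DMXAA-injected mouse 2 (0.24). socs3 was not called without DMXAA-injected mouse 1 (0.54), and nos2 was not called without DMXAA-injected mouse 2 (-0.999). Without DMXAA-injected mouse 1 or 2, Il-4 was -2.49 or -4.98, and Il13 was -1.79 without mouse 1. With counts under 20 set to 20, Ifnb1 was 9.08, Ifna4 5.77, Il-4, Il-33 and Il23a -1.98 and eya4 1.21. All counts of Il-4, Il-33 and Il23a were then equal, so that -1.98 reflects only the panel medians of the mice. Il12b was called without cGAS KO/Fas lpr mouse 4 (0.47), and Il23a without WT/Fas lpr mouse 3 (-1.24), cGAS KO/Fas lpr mouse 3 (-1.33) or DMXAA-injected mouse 1 (-1.65).

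The DMXAA group is 2 mice, and strain, Fas allele, injection and age cannot be told apart. Recovered counts were under 20 for 10 to 16 genes in each Fas lpr mouse and for 11 in each DMXAA-injected mouse, and for 5 genes in all 9 mice. As background is not known, differences that rest on such counts, among them those of Ifnb1, Ifna4, Il-4, Il13 and Il23a, are uncertain in size.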

Other observations

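The 2 DMXAA-injected mice were close to each other, as 81 of the 93 genes differed by less than 0.5 on the centred log2 scale. Among genes with high counts the gap was widest for mda5, oas2 and ccr2. The RNA sensor mda5 was at 2.55 in mouse 1 and 2.05 in mouse 2, oas2 was at 1.03 and 0.54, and the monocyte receptor ccr2 was at 0.43 and -0.23. The largest gap was that of Il-4 (2.49), at recovered counts of 1 and 5.

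The inflammasome sensor aim2 and the p200 member Ifi204 differed in rank between the states, in opposite directions. In the Fas lpr mice aim2 ranked 14 to 17 of the 93 genes and Ifi204 ranked 57 to 65, while in both DMXAA-injected mice aim2 ranked 38 and Ifi204 ranked 19. In the uninjected B6 mice the centred signal of Ifi204 was -0.93 and -2.85 and that of aim2 was 0.82 and 2.64, but Ifi204 had only 11 and 5 counts there. These ranks do not depend on the factor of a mouse.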
